A study of Drosophila melanogaster with 3 samples.

Results

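Grainy head (Grh) sites found with both antibodies were 1607 places in the Drosophila melanogaster genome at which a mouse anti-Grh peak and a rabbit anti-Grh peak were each other's nearest peak by start on the same chromosome and lay at most 250 bp apart. They took in 1607 of the 1638 mouse peaks and 1607 of the 12158 rabbit peaks, that is 98.1% and 13.2% of the lists. The members were chosen by the presence and position of peaks in both lists, and no score entered the choice. Embryos of the w1118 strain, 13 to 16 h old, were fixed in 1.8% formaldehyde, their chromatin was sheared to 0.1 to 0.5 kb, and bound DNA was recovered by immunoprecipitation and sequenced (ChIP-seq). The groups were a library made with mouse anti-Grh antibody, a library made with rabbit anti-Grh antibody, and a rabbit IgG library from the same strain and stage, which was not used here. Each antibody had 1 library, so no spread between replicates can be given and no difference below has a test. Whether IgG marked the same places was not tested. Whole embryos were used, so the peaks carry no cell type.

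Grh belongs to a conserved family of transcription factors that bind DNA as dimers and act in epithelia, from insect epidermis to vertebrate skin. In the fly it acts in the epidermis, trachea and other barrier-forming tissues, where it is known for its part in laying down and repairing cuticle and for helping to open chromatin at epithelial enhancers. The sampled stage is the late embryo, when the epidermis builds its first cuticle. A factor of this kind can occupy several points of an enhancer or of neighbouring enhancers, so both the exact place of a peak and its distance from the next are of interest.

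Positions are first bases in dm3, counted from 1. Each deposited peak is a 2 bp point with a score whose basis the sources used here do not state. Scores of the mouse and rabbit lists need not be on 1 scale, so they are compared within a list or by their order. Ratios of rabbit to mouse score are given only to set pairs against each other, and their size has no meaning of its own. Intervals on shares are exact 95% binomial intervals, and intervals on medians are 95% distribution-free intervals from order statistics. Both cover counting error only, and neighbouring peaks are not independent. Read depth is unknown.

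Of the 31 mouse peaks in no pair, 15 had a rabbit peak within 250 bp that was nearer to another mouse peak, and 16 had none. The largest set lay on 3R, where 11 unpaired mouse peaks had 1 nearest rabbit peak in common, at 16448419, which was itself paired with the mouse peak at 16448388. Paired mouse peaks had a median score of 5.27 (interval 5.16 to 5.38), and the unpaired ones had a median of 5.17 (4.35 to 6.23). The pairs just inside the limit were 233 bp apart on 2R (mouse peak at 8868122), 229 bp apart on 3L (4071645) and 219 bp apart on 2L (715177). Their mouse scores were 2.02, 2.98 and 4.06, and their rabbit scores were 3.94, 5.51 and 5.19. The nearest mutual neighbours outside it were 283 bp apart on 3R (mouse peak at 21846419), 3479 bp on 3R (15690563) and 7043 bp on 3L (20816238). Their mouse scores were 2.66, 4.35 and 2.11, and their rabbit scores were 4.74, 4.67 and 3.91. Mouse peaks on 2L at 507513 and on 2R at 17137448 lay 262 and 264 bp from rabbit peaks that belonged to other pairs. Few pairs thus lay near the limit, and the mutual neighbours named on either side of it had rabbit scores of at most 5.51, below the 16.4 of the median pair.

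Within a pair the 2 peaks lay close together, and this is in part what the rule asked for. The distance was at most 10 bp in 786 pairs (48.9%), at most 50 bp in 1501 (93.4%) and over 100 bp in 41 (2.55%). The mouse peak was at the higher coordinate in 794 pairs and at the lower coordinate in 779, and in 34 both peaks had the same first base. Neither antibody's peaks were therefore displaced to 1 side of the other's.

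**Figure D1:**
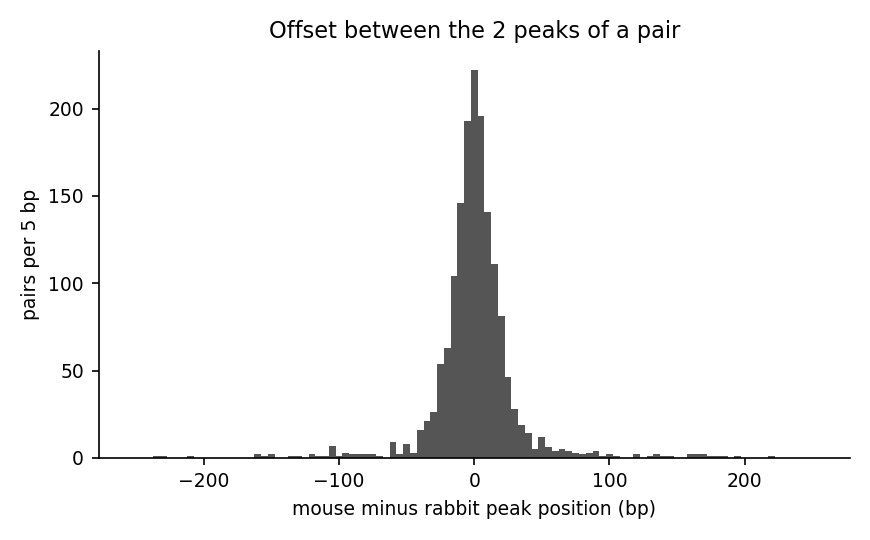
Number of pairs per 5 bp of offset (mouse minus rabbit peak position, in bp) for all 1607 pairs. The counts are highest at 0 bp and fall away on both sides, with 93.4% of pairs at most 50 bp apart.

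Distance went with score. Among the 20% of pairs with the highest mouse scores (7.52 to 31.5) the median distance was 9 bp (interval 8 to 11 bp), and among the 20% with the lowest (2.01 to 3.32) it was 14 bp (13 to 16 bp). By rabbit score the same medians were 8 bp (7 to 10 bp) and 15 bp (13 to 17 bp). Distances over 50 bp made up 3.42% of the highest 20% and 13.4% of the lowest 20% by mouse score, and 3.42% and 14.0% by rabbit score. The mouse-score classes between them had medians of 10, 9 and 12 bp from high to low, so the distance did not change step by step. Over all 1607 pairs the Spearman correlation with distance was only -0.16 for each score, and these pairs share 2 libraries.

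The pairs farther than 100 bp apart had a median mouse score of 3.11 (2.70 to 3.99, 41 pairs). Pairs at most 50 bp apart had a median mouse score of 5.35 (5.22 to 5.47, 1501 pairs). The medians of the rabbit score were 7.45 (5.51 to 13.2) and 16.5 (16.1 to 17.2) for the same sets. The pairs over 100 bp apart thus had lower medians in both lists, though single pairs among them scored high, and their upper quartile by rabbit score was 15.4.

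Pairs were spread widely, with a minority in close groups. The median spacing between neighbouring pairs on a chromosome was 33091.5 bp (interval 28690 to 36305 bp, 1597 gaps), with quartiles of 6125 and 91575 bp and a range of 115 to 883682 bp. All mouse peaks had a median spacing of 31434.5 bp and all rabbit peaks 2878 bp. Spacings of up to 500 bp made up 4.95% of the gaps between pairs (79 gaps), 6.70% of those between mouse peaks and 19.0% of those between rabbit peaks. Spacings over 100 kb made up 22.6%, 22.2% and 1.09%. Pairs followed the spacing of the mouse list, which the rule nearly fixes, since 98.1% of mouse peaks were paired.

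**Figure D2:**
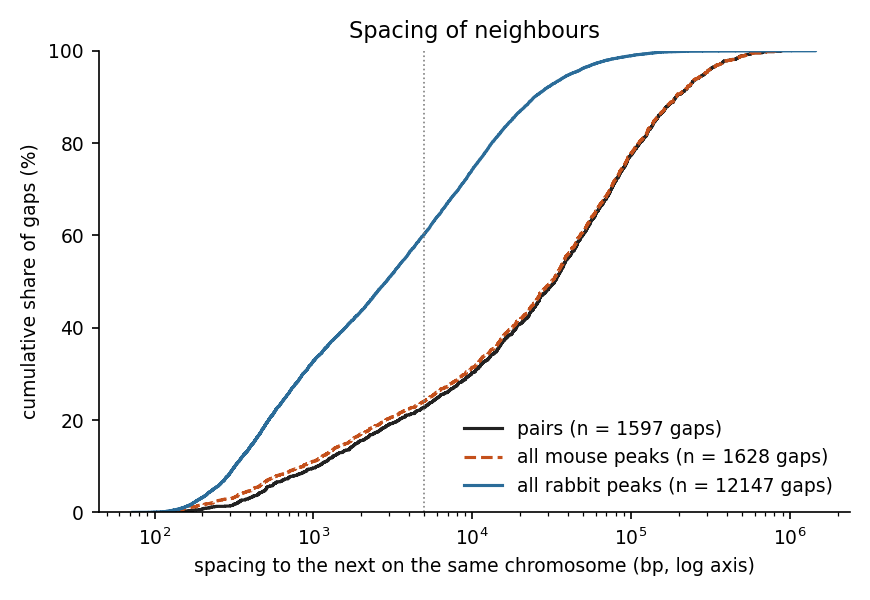
Cumulative share of gaps (%) by spacing to the next on the same chromosome (bp, log axis) for pairs, all mouse peaks and all rabbit peaks, with 5 kb as a dotted line. The curve of the pairs lies on that of the mouse list, and the rabbit curve rises at shorter spacing, with medians of 33091.5, 31434.5 and 2878 bp.

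The closest pairs lay within the length of a sheared fragment. Of the 79 neighbouring pairs at most 500 bp apart, 61 had the same deposited rank in the rabbit list and 32 in the mouse list. Shared ranks were not counted at wider spacing, so these counts have no background share. A rank alone does not name a region, since points on different chromosomes can have the same rank. Whether close points with a rank in common come from 1 called region was not tested, so close pairs need not be separate regions. Few rabbit peaks stood between them: 2 of these 79 gaps held a rabbit peak in no pair. Rabbit peaks stood in 14 of the 75 gaps of 500 bp to 1 kb, in 120 of the 211 gaps of 1 to 5 kb and in 570 of the 584 gaps of 20 to 100 kb. In the last class the median number of rabbit peaks between neighbouring pairs was 6, and over 100 kb it was 14. Longer gaps have more room for rabbit peaks, so this rise is not a result about close pairs.

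Of the 5 widest gaps between neighbouring pairs, which leave out the ends of the arms, 4 were on X. They ran from 21152214 to 22035927, from 12649230 to 13519619, from 20117563 to 20915755 and from 18541258 to 19247828 (first bases of the flanking mouse peaks). They held 32, 76, 24 and 65 rabbit peaks. The next was on 2L from 16754310 to 17430018, with 29 rabbit peaks. None of these 5 gaps was empty of rabbit peaks, but all rabbit peaks had a median spacing of 2878 bp. Gaps this wide would thus seldom be empty. For comparison, X held 2033 rabbit peaks over 22.4 Mb, and 2L held 2053 over 22.9 Mb. Whether rabbit peaks were sparser in these gaps than in the rest of the arm was not tested. Toward the centromere end of 2R, no pair lay before that at 1406559.

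Chaining pairs at gaps of up to 5 kb placed 651 pairs (40.5%, interval 38.1 to 43.0%) in 286 clusters and left 956 lone pairs (59.5%). The same chaining put 41.9% of all mouse peaks and 82.0% of all rabbit peaks in clusters. The share of pairs was near that of the mouse list and is not a result about pairing. Most clusters were small: 224 held 2 pairs, 51 held 3, 7 held 4, 3 held 5 and 1 held 7. Clusters of 2 spanned a median of 1327.75 bp.

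Rabbit peaks stood near lone pairs slightly less often than near any rabbit peak. Lone pairs by definition have no other pair within 5 kb, so paired neighbours are missing from their counts only. The lower share is therefore not a result about lone pairs. Another rabbit peak lay within 1 kb of 503 of the 651 clustered pairs, where it could be the rabbit peak of a neighbouring pair. The same held for 473 of the 956 lone pairs (49.5%, 46.3 to 52.7%), against 53.2% of all rabbit peaks. Over all 1607 pairs the count was 976 (60.7%). Within 5 kb, 750 of the lone pairs (78.5%, 75.7 to 81.0%) had another rabbit peak, against 82.0% of all rabbit peaks. Chained over the whole rabbit list, rabbit peaks in pairs were clustered in 87.2% of cases (85.4 to 88.8%) and rabbit peaks in no pair in 81.2% (80.5 to 82.0%). The excess of the paired share comes from the clustered pairs, whose rabbit peaks are clustered by construction, so it is not a result about pairing. The 5 lone pairs farthest from any other were on X at 22035927, on 3R at 24158647, on 2R at 1406559, on chromosome 4 at 1109390 and on 3L at 10196191. They stood 883682, 526217, 480548, 462719 and 328097 bp from the next pair. In the same sequence, mouse scores were 6.77, 9.52, 3.61, 3.23 and 7.74, and rabbit scores were 21.8, 36.2, 10.4, 24.0 and 17.6. These 5 fell on both sides of the median of the pairs in both lists.

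Clustered and lone pairs had similar median scores at this chaining distance. The median mouse score was 5.22 (5.04 to 5.38) in clustered pairs and 5.32 (5.18 to 5.48) in lone pairs, a difference of -0.10 (interval -0.32 to 0.13). The median rabbit score was 15.9 (15.3 to 17.0) in clustered pairs and 16.5 (15.9 to 17.2) in lone pairs, a difference of -0.67 (-1.74 to 0.39). Both intervals include 0, and the median distance within a pair was 11 bp in both sets. With chaining at 2 kb the mouse difference was -0.28 with an interval that leaves out 0 (-0.53 to -0.03), and the rabbit difference was -0.45 (-1.81 to 0.91). The 50 pairs in clusters of 4 or more had a median mouse score of 5.04 (4.003 to 5.66) and a median rabbit score of 16.4 (12.4 to 19.8). Over all pairs the distance to the nearest other pair had a Spearman correlation of -0.004 with the mouse score and -0.006 with the rabbit score (1604 pairs with a neighbour on their chromosome).

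**Figure D3:**
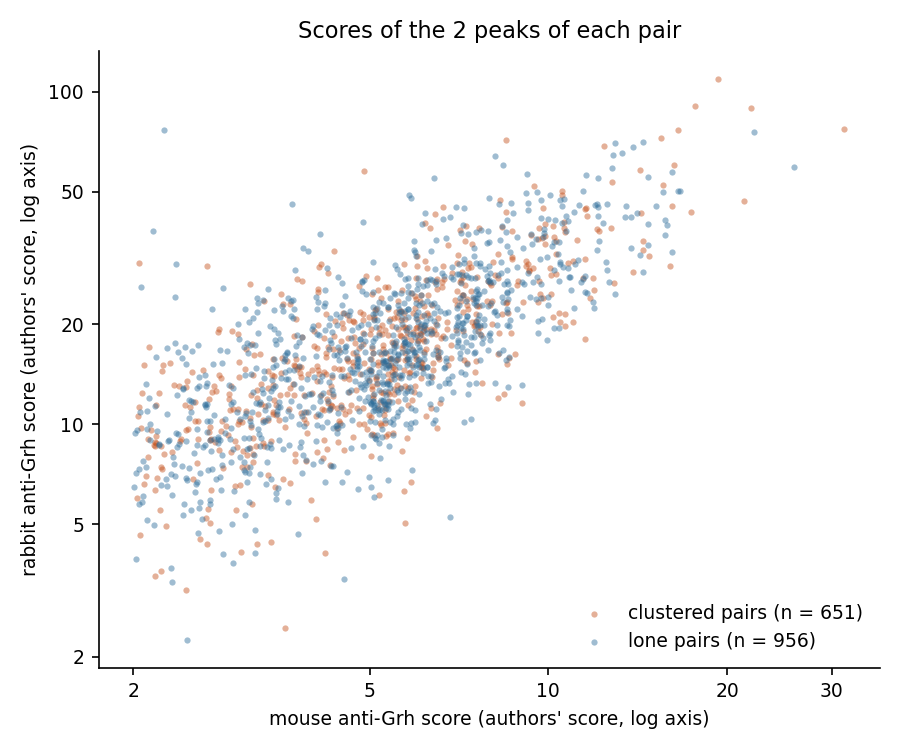
Rabbit score against mouse score of each pair (authors' scores, log axes), with 651 clustered and 956 lone pairs in separate colours. Both sets fill the same cloud, and the clustered and lone medians are 5.22 and 5.32 in mouse score.

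The order of scores was shared by both antibodies among clustered pairs as among lone ones. The Spearman correlation between mouse and rabbit score was 0.73 over 651 clustered pairs and 0.71 over 956 lone pairs. Of 402 pairs in the top 25% by mouse score, 275 (68.4%) were also in the top 25% by rabbit score, and they made up 68.2% of the 403 in that list. Within the top 10% of each, 95 of 161 were in common, or 59.0% of both. No pair in the top 10% by mouse score was in the lower 50% of pairs by rabbit score, while 7 in the top 10% by rabbit score were in the lower 50% by mouse score.

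Within a cluster the antibodies mostly placed the same pair first. The pair with the highest mouse score also had the highest rabbit score in 221 of 286 clusters (77.3%, 72.0 to 82.0%). This held in 181 of 224 clusters of 2 (80.8%, 75.03 to 85.7%) and in 40 of 62 larger ones (64.5%, 51.3 to 76.3%). Unrelated scores would share a leader less often in larger clusters, so the lower share there does not mean weaker agreement. In 88 clusters of 2 the scores of both lists differed at least 1.5 times between the pairs, and there the leader was the same in 84 (95.5%, 88.8 to 98.7%). Leadership in both lists restates, at close range, the correlation of scores over all pairs. In clusters of 2 the higher score was a median of 1.53 times the lower by mouse score and 1.67 times by rabbit score. Between neighbouring pairs the median fold by mouse score rose with spacing, from 1.44 at up to 500 bp to 1.65 over 100 kb. By rabbit score it was 1.53 at up to 500 bp, 1.46 at 500 bp to 1 kb, 1.74 at 5 to 20 kb and 1.64 over 100 kb. These folds have no interval. Among clusters of 3 or more the leader was not at an end in 19 of 62 by mouse score and in 18 of 62 by rabbit score. Of these clusters 51 held 3 pairs, which leaves only 1 place that is not at an end. The counts are therefore not a result about where leaders lie.

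Scores of neighbouring pairs were at most weakly related at any spacing. The Spearman correlation of neighbouring mouse scores was 0.18 over 79 gaps of up to 500 bp, 0.32 over 75 gaps of 500 bp to 1 kb, 0.11 over 211 gaps of 1 to 5 kb and 0.02 over 287 gaps of 5 to 20 kb. For rabbit scores the values were 0.15, 0.25, 0.07 and -0.01. Over 584 gaps of 20 to 100 kb they were -0.05 for mouse scores and 0.06 for rabbit scores. These are descriptions over pairs from 2 libraries, without intervals. In 61 of the 79 closest gaps both pairs had the same rabbit rank, so they need not be separate regions. Beyond 100 kb the value was -0.20 for mouse scores and -0.07 for rabbit scores, over 361 gaps.

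The cluster with the most pairs held 7 on 2R, with mouse peaks from 3942935 to 3956722. The mouse scores lay between 2.47 and 7.29, and the rabbit scores between 5.04 and 22.8. The first pair had the highest score in both lists, and the stretch held 19 rabbit peaks in all. This fullest cluster was therefore weak, with medians of 3.44 by mouse score and 10.02 by rabbit score, both below the medians of all pairs (5.27 and 16.4).

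Another cluster on 2R held 5 pairs from 18785719 to 18790488 and was strong by mouse score. In order along the arm its mouse scores were 7.45, 11.02, 16.0, 7.50 and 5.05, and its rabbit scores were 20.3, 31.0, 29.9, 19.8 and 13.0. The highest score lay inside the cluster in both lists, but the leaders differed, the mouse leader being the pair at 18787868 and the rabbit leader the pair at 18786123. The peaks of its pairs lay 1 to 13 bp apart.

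The clusters of 5 on X had no mouse score above 6.12. From 10823979 to 10831003 the mouse scores ran from 3.17 to 5.98 and the rabbit scores from 17.5 to 25.9. From 2029186 to 2035900 they ran from 2.56 to 6.12 and from 7.68 to 21.2. The last of the clusters named here held 4 pairs on 2L from 19438842 to 19440750, the shortest span among the clusters of 4. Its mouse scores were 8.47, 10.6, 3.44 and 5.26, and its rabbit scores were 43.6, 38.9, 10.7 and 15.4. The first pairs of this cluster along the arm outscored the last ones in both lists.

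Mouse scores were lower where more rabbit peaks stood around the pair. The 631 pairs with no other rabbit peak within 1 kb had a median mouse score of 5.39 (5.26 to 5.67), and the 593 with 1 had 5.40 (5.25 to 5.56). With 2 other rabbit peaks the median was 4.90 (4.50 to 5.21, 259 pairs), and with 3 or more it was 4.34 (3.88 to 5.04, 124 pairs). The rabbit score had medians of 16.5, 16.9, 15.6 and 14.8 over the same classes. The intervals of its first class (15.8 to 17.2) and its last class (12.5 to 17.7) overlapped. The paired rabbit peak was the higher-scoring one in most such places: of 821 pairs with an unpaired rabbit peak within 1 kb, it exceeded all of them in 722 (87.9%, 85.5 to 90.1%). Over the whole list, rabbit peaks in pairs had a median score of 16.4 (15.8 to 16.9) and those in no pair 5.48 (5.41 to 5.53). The share therefore need not be particular to these places, and whether it differs from that for distant unpaired peaks was not tested.

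**Figure D4:**
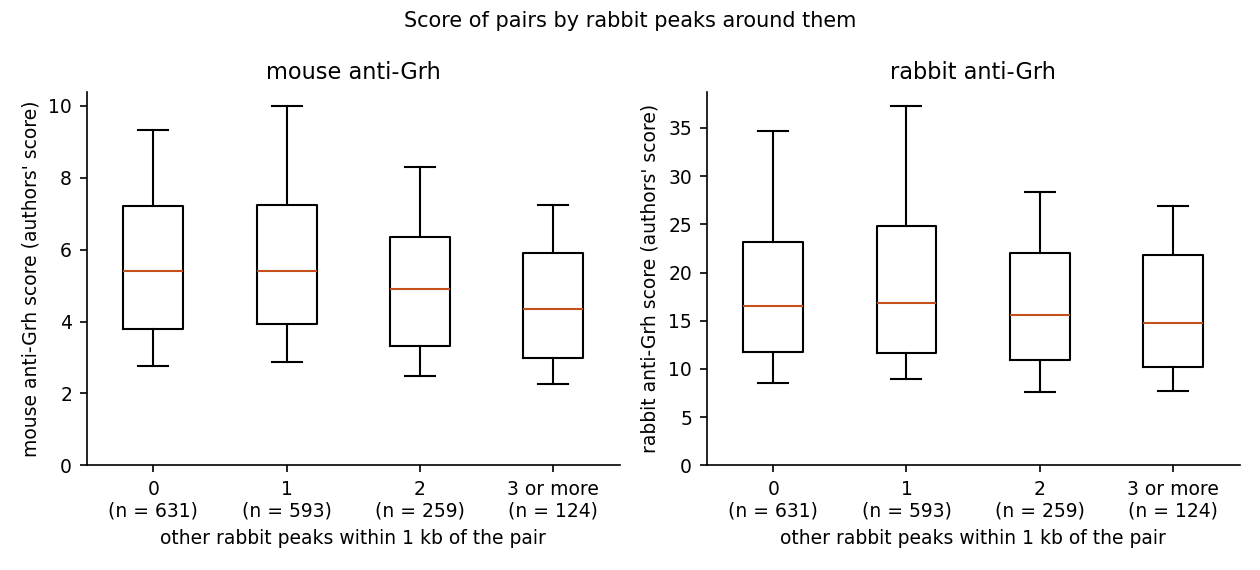
Mouse score (left) and rabbit score (right, authors' scores) of pairs with 0, 1, 2 and 3 or more other rabbit peaks within 1 kb; boxes are quartiles, lines in boxes medians and whiskers the 10% and 90% points. The mouse medians are 5.39, 5.40, 4.90 and 4.34, and the rabbit medians 16.5, 16.9, 15.6 and 14.8.

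Along the arms, pairs were unevenly dense but alike in score. Their density was 17.9 per Mb on 2R (379 pairs), 15.5 on 3R (431), 13.3 on 3L (323), 12.2 on 2L (279), 8.17 on X (183) and 4.78 on chromosome 4 (6). Pairs took in 183 of the 2033 rabbit peaks on X (interval 7.79 to 10.3%) and 279 of the 2053 on 2L (13.6%, 12.1 to 15.1%). The shares were 13.1% on 3L, 14.4% on 3R, 15.1% on 2R and 8.57% on chromosome 4 (3.21 to 17.7%). X thus had fewer pairs than 2L at a similar count of rabbit peaks. All 183 mouse peaks on X were paired, so its count of pairs is that of the mouse list. Median mouse scores of the arms ran from 5.17 on 2L to 5.50 on X, and median rabbit scores from 15.7 on 3L to 16.8 on 3R. Pairs on X, the arm with the lowest density among the major arms, had a median mouse score of 5.50 (5.24 to 5.87), against 5.25 (5.12 to 5.38) on the autosome arms. The difference was 0.24 (interval -0.10 to 0.58). In rabbit score it was 0.18 (-1.44 to 1.79). Clusters took in 33.9% of X pairs (27.1 to 41.2%), 34.7% of 3L pairs (29.5 to 40.1%) and 45.1% of 2R pairs (40.0 to 50.3%).

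The arms were cut into 10 equal parts from the centromere outwards. The part next to the centromere had the fewest pairs, 94 or 7.93 per Mb, of which 58 were on 3R. The outermost part had the most, 200 or 16.9 per Mb, and the parts between had 138 to 191. Paired peaks made up 12.9% of the rabbit peaks of the part next to the centromere (10.5 to 15.5%) and 14.2% of those of the outermost part (12.4 to 16.2%). The low count near centromeres therefore went with fewer rabbit peaks of any kind there (731, against 1406 in the outermost part).

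Score did not follow position along the arm. The median mouse score of the 10 parts lay between 4.90 and 5.60 and the median rabbit score between 15.5 and 17.4, with no steady rise or fall. The 20% of each arm next to the centromere had a median mouse score of 5.26 (5.06 to 5.51, 285 pairs), and the rest had 5.29 (5.15 to 5.40, 1310 pairs), a difference of -0.03 (-0.29 to 0.23). In rabbit score the medians were 17.3 (15.9 to 18.7) and 16.2 (15.7 to 16.7), a difference of 1.10 (-0.41 to 2.60). Over all pairs on the major arms the Spearman correlation of distance from the centromere, as a share of the arm, was 0.01 with the mouse score and -0.01 with the rabbit score.

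**Figure D5:**
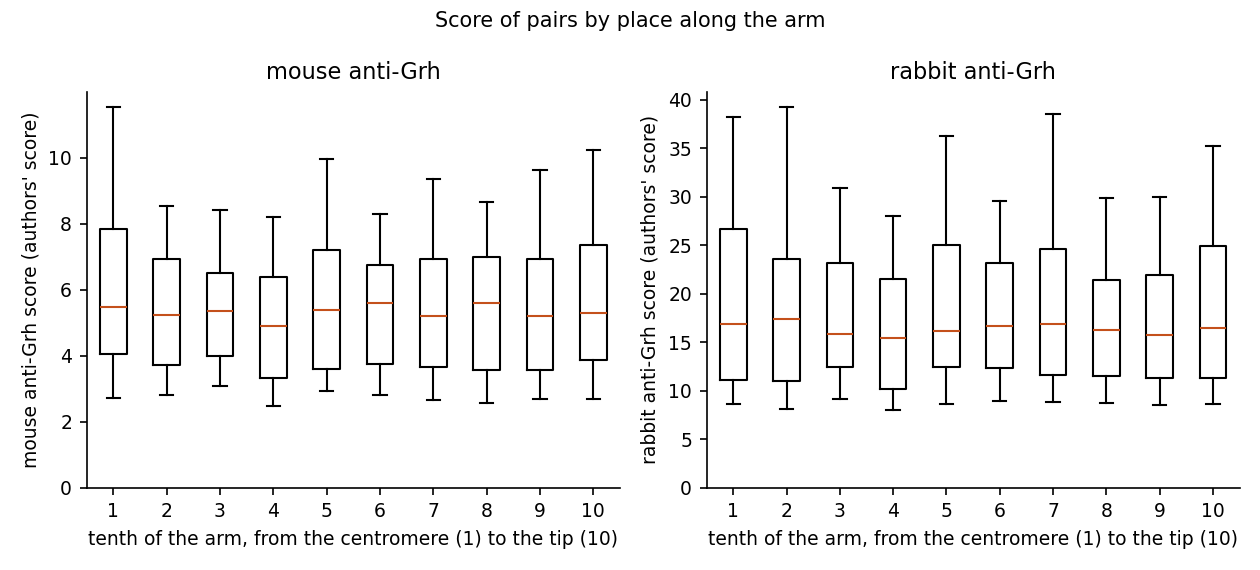
Mouse score (left) and rabbit score (right, authors' scores) of pairs in 10 equal parts of the arms 2L, 2R, 3L, 3R and X, from the centromere (1) to the tip (10); boxes are quartiles, lines in boxes medians and whiskers the 10% and 90% points. The medians stay between 4.90 and 5.60 in mouse score and between 15.5 and 17.4 in rabbit score.

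The count of pairs also varied at the scale of 1 Mb. Among 116 full windows of 1 Mb it ran from 0 to 40 with a median of 13. The fullest was 2R from 3000001 to 4000000, with 40 pairs and medians of 5.15 by mouse score and 16.6 by rabbit score, close to those of all pairs. Further windows on 2R came next, with 30 pairs between 20000001 and 21000000 and 28 between 18000001 and 19000000. The empty windows were the first of 2R and, on 3L, that between 23000001 and 24000000, both at the centromere end of their arm. Over the 84 windows with 10 or more pairs, the median mouse score ran from 3.35 to 6.97 and the median rabbit score from 10.9 to 24.7.

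Strong pairs were found on each major arm. Taking the best pair by mouse score of each major arm, the scores were 31.5 on 2L at 4030352 (rabbit score 77.4, peaks 58 bp apart), 25.9 on 3R at 25352459 (59.6, 33 bp), 21.9 on X at 17207611 (89.3, 2 bp), 21.4 on 2R at 18821367 (46.8, 1 bp) and 19.3 on 3L at 20685800 (109, 7 bp). Of these, the pair on 3R was lone and the others stood in clusters of 2 or 3. On chromosome 4 the highest was 9.72 at 401297 (rabbit score 24.0), while the other pairs there had mouse scores of 2.90 to 3.47 and rabbit scores of 8.81 to 24.0. The heterochromatic sequences of dm3 held 6 pairs, of which the highest in both lists was on XHet at 50416 (mouse score 12.0, rabbit score 45.6).

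Some pairs were placed very differently by the antibodies. Rabbit scores were a median of 3.16 times the mouse scores (quartiles 2.50 and 4.04). The ratio was 34.0 on 3R at 3636264, where the mouse peak had a score of 2.26 (order 1577 of 1638) and the rabbit peak 76.6 (order 43 of 12158). These peaks were 159 bp apart, and the pair was lone. The next pairs with a high rabbit and a low mouse score were on 3R at 25848550, 2L at 19453590, 3L at 11041189 and 3R at 9260766. The mouse peaks scored 2.16, 2.05, 2.36 and 2.06, and the rabbit peaks 38.2, 30.5, 30.4 and 25.8. Apart from the first, these peaks lay 2 to 49 bp apart.

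The opposite case was milder. The pair highest in the mouse order relative to the rabbit order was that of the mouse peak at 3771424 on 3L (score 6.83, order 428), whose rabbit peak scored 5.25 (order 7213) and lay 119 bp away. It was followed by pairs on 3L at 21045383, 3R at 3782926, X at 14762644 and 3R at 16448388, with mouse scores of 9.03, 7.40, 7.20 and 5.73 and rabbit scores of 11.6, 10.4, 10.2 and 5.04. The last of these stood beside the run of unpaired mouse peaks on 3R. The 5 pairs that stood higher in the rabbit order differed by 78.8 to 96.0 percentile points among pairs, and the 5 that stood higher in the mouse order by 56.9 to 71.7.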

How the data were processed

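Reads were aligned with Bowtie to dm3, per the submitters' processing notes. How peaks were called, with what cut-offs and whether against IgG, is not stated in the sources used here. For each anti-Grh library the authors deposited a peak list that gives a score of unstated unit to each 2 bp point. Lists were not pooled. The members and the questions asked of them were chosen with earlier results of these data known.

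Peaks were paired where they were mutually nearest by start within 250 bp, with ties in distance given to the higher score. Pairs were chained by midpoints at gaps of up to 5 kb. The last peak of either list stood for the end of an arm, so arm lengths are too short by an unknown amount. The centromere lies at the high end of 2L, 3L and X and at the low end of 2R and 3R. An interval on a difference of medians combines the half-widths of both medians in quadrature. Pairs named in the text are the highest by mouse score per arm, the 5 largest clusters (ties by shorter span), the 5 most isolated pairs, the 5 with the largest difference in order in each direction, and those at the 250 bp limit. Windows and stretches named were chosen after their values were seen. The pairing step was run on simulated lists with planted pairs, in which rabbit peaks were widely and evenly spaced. That checks the code only, and not pairing where rabbit peaks crowd as they do in these lists. Without a genome or annotation of the dm3 build, no sequence or gene is given. The tools were SciPy 1.17.1, pandas 2.3.3, NumPy 2.4.6 and matplotlib 3.10.9 under Python 3.11.15.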

Additional observations from a re-analysis of the deposited data

How the results depend on the processing

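Of 75 alternative values for 10 results, 57 stayed within the interval of the reported value (or within 1.5 times it, for the number of pairs), and 18 did not. The setting of 1 point per rank and 1 kb stretch was chosen after seeing the data. The upper 50% of each list by score gave 802 pairs, a median distance of 9 bp, a spacing of 75822.8 bp, 23.7% in clusters, a mouse score difference of -0.47 between clustered and lone pairs, 0.30 between the centromere-proximal 20% and the rest, and -0.30 between X and the autosomes. Fewer peaks enter there. Keeping 1 point per deposited rank, which also merges peaks of different chromosomes, gave 849 pairs, 70814.5 bp, 20.1%, -0.44 between clustered and lone pairs, and X differences of 0.67 in mouse score and 2.22 in rabbit score. Merging only points of 1 rank within 1 kb gave a spacing of 36462.5 bp and 33.6% in clusters. Chaining at 2, 10 and 20 kb put 28.3%, 51.2% and 64.2% of pairs in clusters, by construction. Clustered pairs were lower than lone ones in both lists in all settings but the chaining at 20 kb, and at 2 kb the interval of the mouse difference (-0.28) left out 0. X was higher than the autosomes in 6 of 7 settings in each list, and the intervals of all 7 included 0 in both lists. Near centromeres the mouse difference was positive in 5 of 9 settings. The rabbit score was 0.52 to 1.57 higher in all 9, but the interval included 0 in each. These counts include the reported setting, and the settings reuse largely the same pairs. Leaving out heterochromatic sequences and chromosome 4 could not change the centromere values, since those pairs have no place along an arm. No paired analysis was possible because there is only 1 library for each antibody, which also leaves no replicate to omit.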
